A study of Mus musculus with 10 samples.

Results

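The 2 ATAC-seq libraries of 4C-sorted cells and the 2 libraries of cKIT+ cells from Smarca5 conditional knockout (cKO) testis were compared, 4 of the 10 samples of the series. The members are the merged autosomal peak regions of these 4 libraries: peaks on chromosomes 1 to 19 were joined wherever they shared at least 1 bp, which gave 168328 regions. A region was called opened where both 4C lists held a peak and neither cKIT+ list did, and closed in the reverse case. The mice carried the genotype Smarca5 fl/delta; Ddx4-Cre+, so 1 Smarca5 allele was floxed and the other deleted, and Cre came from the promoter of the germ cell gene Ddx4; cells outside the germline carry 1 floxed allele. Every library in this comparison is cKO, and 50000 sorted cells went into each. The 4C cells were sorted by Hoechst DNA content and are labelled pachytene spermatocytes, though any replicated diploid cell also has a 4C content; cKIT+ cells are labelled by the surface receptor of differentiating spermatogonia. The labels of the cKIT+ libraries describe both sorts, and the line on library preparation, which names cKIT+ cells, set their group. The labels give no age and do not say that the replicates are separate animals, so a p-value measures only the spread between these samples. The series also holds 4 wild type libraries of the same sorts and 2 cKO whole-testis single-cell RNA samples, which are used here only beside these regions.

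ISWI remodeling complexes slide and space nucleosomes, and SMARCA5 supplies the ATPase activity of several of them. Differentiating spermatogonia divide by mitosis and then enter meiosis; in the pachytene stage of the first meiotic prophase, homologous chromosomes are paired and many genes for later sperm formation are transcribed. ATAC-seq marks DNA that the Tn5 transposase can enter, which is mostly nucleosome-free promoters and enhancers. A-MYB, the product of Mybl1, is a transcription factor of pachytene spermatocytes, and STRA8 acts at meiotic entry.

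Promoters of the starts with the highest fold in each direction are shown first, beside that of Smarca5. All are from RefSeq on GRCm38.p6 (the mm10 assembly), 5′ to 3′ on the gene's strand, from 250 bases before the gene start to 50 after it. Ttc6 had the highest fold among opened starts (chr12:57563865-57564164, + strand), Gm42190 the highest among closed starts (chr3:19953905-19954204, − strand), and the Smarca5 promoter (chr8:80739410-80739709, − strand) lay under a peak in all 4 lists.
Ttc6: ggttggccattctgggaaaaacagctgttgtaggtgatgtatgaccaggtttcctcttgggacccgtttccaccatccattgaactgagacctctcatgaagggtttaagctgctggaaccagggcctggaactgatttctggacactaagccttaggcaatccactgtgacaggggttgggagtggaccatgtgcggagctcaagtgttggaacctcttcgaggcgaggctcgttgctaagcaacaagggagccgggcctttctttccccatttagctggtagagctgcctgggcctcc
Gm42190: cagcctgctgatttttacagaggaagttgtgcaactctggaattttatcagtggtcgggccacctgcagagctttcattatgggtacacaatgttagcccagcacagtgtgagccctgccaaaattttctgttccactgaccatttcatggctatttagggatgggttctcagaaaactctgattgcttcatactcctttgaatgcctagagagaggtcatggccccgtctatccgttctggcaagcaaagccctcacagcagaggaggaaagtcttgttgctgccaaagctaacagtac
Smarca5: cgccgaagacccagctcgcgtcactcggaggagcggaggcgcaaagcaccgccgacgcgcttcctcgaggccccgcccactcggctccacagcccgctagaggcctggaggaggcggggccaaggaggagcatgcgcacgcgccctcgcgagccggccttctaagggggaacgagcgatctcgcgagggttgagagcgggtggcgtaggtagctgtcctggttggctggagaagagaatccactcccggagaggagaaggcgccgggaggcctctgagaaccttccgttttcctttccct
The Ttc6 promoter holds 6 CpG dinucleotides, the Gm42190 promoter 3 and the Smarca5 promoter 32.

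The next promoters belong to opened starts that hold CAACTGCC, a form of the MYB binding sequence, shown in capitals on either strand (as GGCAGTTG on the other). They were chosen after their values were seen, as starts with high fold whose RNA also rose in pachytene cells. They lie at chr6:98552055-98552354 (4930595L18Rik, − strand), chr12:101404423-101404722 (Catsperb, + strand), chr15:4898487-4898786 (Mroh2b, + strand), chr2:173719165-173719464 (1700010B08Rik, + strand) and chr1:88226770-88227069 (Mroh2a, + strand).
4930595L18Rik: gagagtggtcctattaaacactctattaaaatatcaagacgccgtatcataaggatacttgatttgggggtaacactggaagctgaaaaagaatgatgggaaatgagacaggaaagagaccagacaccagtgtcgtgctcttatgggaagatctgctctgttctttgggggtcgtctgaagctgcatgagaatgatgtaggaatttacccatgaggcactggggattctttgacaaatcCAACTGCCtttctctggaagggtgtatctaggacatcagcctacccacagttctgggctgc
Catsperb: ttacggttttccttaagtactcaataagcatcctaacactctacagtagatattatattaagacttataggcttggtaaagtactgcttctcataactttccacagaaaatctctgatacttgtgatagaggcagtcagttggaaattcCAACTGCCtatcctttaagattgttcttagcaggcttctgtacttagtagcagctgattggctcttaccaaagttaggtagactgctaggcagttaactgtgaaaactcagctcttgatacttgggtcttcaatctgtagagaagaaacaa
Mroh2b: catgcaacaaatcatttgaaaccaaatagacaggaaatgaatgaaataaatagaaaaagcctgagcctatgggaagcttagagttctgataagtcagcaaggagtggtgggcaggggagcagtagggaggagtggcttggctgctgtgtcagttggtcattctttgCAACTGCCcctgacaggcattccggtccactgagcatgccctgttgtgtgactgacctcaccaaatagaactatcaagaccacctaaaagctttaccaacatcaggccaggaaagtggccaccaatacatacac
1700010B08Rik: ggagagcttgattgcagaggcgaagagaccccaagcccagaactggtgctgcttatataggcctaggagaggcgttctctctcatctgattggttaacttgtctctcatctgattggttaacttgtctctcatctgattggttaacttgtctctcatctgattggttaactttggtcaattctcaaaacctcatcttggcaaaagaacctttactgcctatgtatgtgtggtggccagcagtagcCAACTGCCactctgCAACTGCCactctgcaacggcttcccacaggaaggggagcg
Mroh2a: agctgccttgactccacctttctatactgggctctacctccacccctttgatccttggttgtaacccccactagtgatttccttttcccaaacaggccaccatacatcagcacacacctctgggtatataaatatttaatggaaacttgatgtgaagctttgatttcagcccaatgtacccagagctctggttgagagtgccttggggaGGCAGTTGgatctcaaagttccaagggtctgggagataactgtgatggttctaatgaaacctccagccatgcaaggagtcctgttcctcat

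The 4C cKO lists held far fewer peaks than the cKIT+ cKO lists, and a larger share of their peaks lay at gene starts. The 4C lists held 51920 and 55233 autosomal peaks and the cKIT+ lists 124415 and 119128, without overlap between the sorts. Peaks within 1000 bp of a gene start made up 31.3% and 30.1% of the 4C lists and 16.9% and 18.3% of the cKIT+ lists. The number of such peaks was also lower in 4C cells, 16265 and 16605 against 21079 and 21757, though with lists of equal length it was higher in 4C cells (log2 ratio 0.22 against −0.38). The median fold enrichment, the authors' value of a peak over the local background of its own library, was 3.81 and 3.79 in 4C cells and 4.36 and 4.76 in cKIT+ cells. With 2 libraries a group the two-sided exact permutation test cannot go below p = 0.33, the value all 9 measures gave, before and after Benjamini-Hochberg adjustment. The read depth behind the lists is unknown, so its part in the peak numbers was not tested. Lists of 1 sort and genotype could also differ widely. The 2 cKIT+ wild type lists held 43672 and 110176 autosomal peaks, with 34.3% and 17.9% of them at gene starts.

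**Figure D1:**
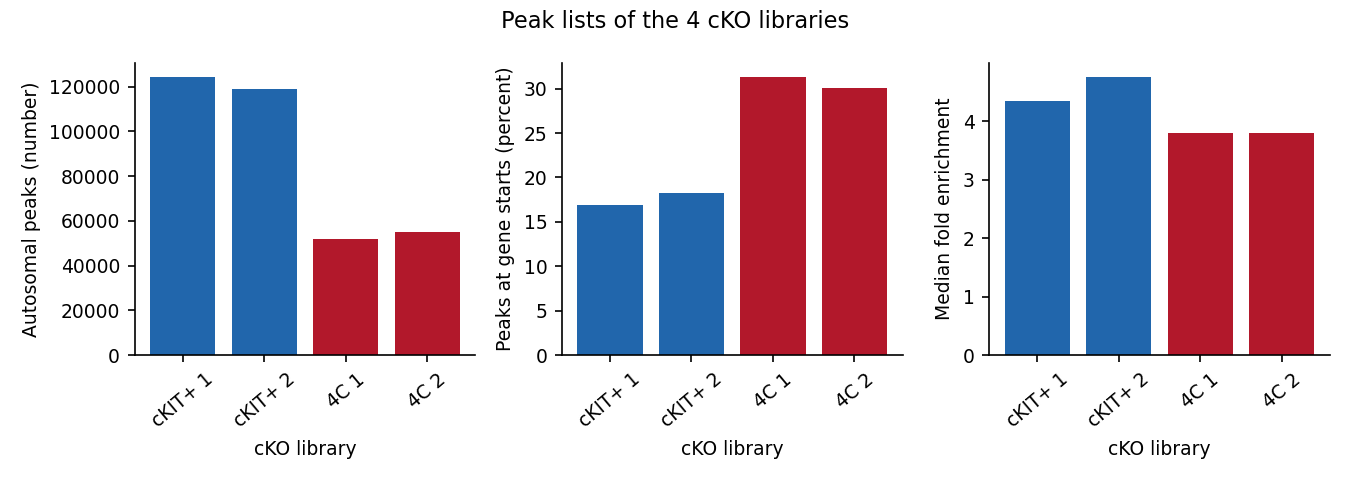
Number of autosomal peaks, percent of peaks at gene starts and median fold enrichment in each cKO library; each bar is 1 library, blue cKIT+ and red 4C-sorted. The 4C lists hold 51920 and 55233 peaks, fewer than both cKIT+ lists, and a larger percent of them lies at gene starts.

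Closing was the more frequent change over regions: 65972 regions (39.2%) closed and 8419 (5.0%) opened, while 26468 lay under a peak in all 4 lists. Of the opened regions 11.9% lay at a gene start and 54.0% within a gene, near the 14.5% and 53.1% of every region. Of the closed regions 6.89% lay at a gene start and 59.0% within a gene, and of the regions in all 4 lists 51.8% lay at a gene start. With all lists reduced to the 51920 peaks of the shortest, 16656 regions opened and 22773 closed. With only peaks of −log10 q of at least 5, 2187 opened and 35884 closed, and 787 of the 8419 opened regions (9.35%) kept their call. Without 4C replicate 1 the opened count was 20433, and without 4C replicate 2 it was 19052.

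Regions in all 4 lists mostly kept their peak at a lower fold. In 17371 of them (65.6%) both 4C folds were below both cKIT+ folds, and in 3445 (13.0%) both were above, with a median log2 ratio of −0.32. Folds are relative to each library's own background, so these ratios are a description. The region with the largest ratio lay 27049 bp from the start of Pthlh, the gene of a parathyroid hormone-like peptide (chr6:147236635-147236964), with folds of 20.9 and 22.3 in 4C cells against 4.76 and 4.82 in cKIT+ cells. Among the regions lower in 4C cells, one within Nxn (chr11:76377948-76378333) had 3.62 and 3.99 against 16.3 and 17.9. In both regions the sorts did not overlap, which their choice fixed. The starts in all 4 lists gave a median log2 ratio of −0.35. Such starts gave −0.54 over the CTCF and cohesin list, which had only 8, and −0.48 over 29 of the mitotic list. The replication list gave −0.44 over 39 starts. Hox and developmental regulators gave −0.06 over 33 starts, and Sertoli cell markers −0.03 over 7.

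Among opened regions more than 1000 bp from any gene start, the highest folds were 13.3 and 14.6 at chr7:36344126-36344375, between genes and 353743 bp from Tshz3, a zinc finger homeobox gene. A region within Immp2l, a mitochondrial peptidase gene (chr12:41217559-41217883), followed at 10.4 and 10.2. Closed distal regions reached higher folds. A region within Cd44, a hyaluronan receptor gene (chr2:102829331-102829495), stood at 22.9 and 26.0 in cKIT+ cells, and one 116657 bp from Isl1, a LIM homeobox gene (chr13:116192852-116193031), at 22.0 and 26.0.

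At gene starts, 704 of 31396 starts (2.24%) opened, of 638 genes, and 2507 (7.99%) closed, of 2187 genes; 14752 (47.0%) had a peak in all 4 lists. As a share of all starts, opening was more frequent at long noncoding RNAs, 408 of 11311 (3.61%), than at protein-coding genes, 296 of 20084 (1.47%). Closing was too, 11.4% against 6.05%. A start in all 4 lists can be neither opened nor closed, and such starts were 21.8% of the noncoding and 61.2% of the coding ones. The difference may therefore come from that share, and the remaining starts were not compared. The balance depended on the list length: with lists of equal length 2756 starts opened and 976 closed, the opposite order. Under both that setting and the −log10 q minimum of 5, 131 opened and 961 closed starts kept their call. Genes without a strand-resolved start were read at both annotated ends, of which 1.6% opened and 9.1% closed.

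Ttc6, a tetratricopeptide repeat gene, had the highest opened fold, 8.24 and 9.12 in the 4C libraries, with no peak in either cKIT+ list. Its call and that of Dip2b were lost with a window of 2000 bp. Noncoding genes made up 8 of the 10 highest, among them Gm12374 with 7.15 and 7.73 and Gm40646 with 6.48 and 6.91. Further protein-coding genes with high folds were added after the values were seen. Ankar, a gene with ankyrin and armadillo repeats, had 7.16 and 5.94, and its other annotated start opened as well. Slc9c1, the sperm-specific sodium-proton exchanger, had 6.68 and 5.36. Pde10a, a cyclic nucleotide phosphodiesterase, had 5.71 and 5.88 at a start used beside another that was open in all 4 lists. Dip2b had 7.03 and 7.09 at such a second start too, its other start being open in all 4 lists.

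The highest closed folds were at noncoding starts: Gm42190 stood at 15.3 and 14.5 in the cKIT+ libraries and Gm46178 at 13.9 and 15.0. Among coding genes, a start of Zfand6, a zinc finger gene, had 13.3 and 13.6 while its other start was open in all 4 lists; its call was lost where peaks had to cover 200 bp of the window. The same second open start was found for Aldoc, a brain-type aldolase gene of glycolysis, with 12.4 and 12.3, and Ctnnd1, the p120 catenin of cell junctions, with 10.7 and 13.7. Cyp4f15, a cytochrome P450 gene, had 12.9 and 13.8 with no other start. C7, a complement component, had 11.9 and 12.4. Aldoc, Ctnnd1 and C7 were added after the values were seen; the Aldoc call was lost with a window of 500 or of 2000 bp and under the 200 bp cover.

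At the starts of the genes of meiosis itself, the presence of a peak hardly changed. Of 52 starts of the meiotic prophase list, 49 had a peak in all 4 lists, none opened and none closed. The median log2 ratio of fold at those 49 starts was −0.28, beside −0.35 for every start in all 4 lists. DNA replication gave 39 of 41 in all 4 lists, ribosomal proteins 40 of 40, and axonemal and cilia genes 41 of 45, against 47.0% of every start. The shares do not separate the sorts: undifferentiated spermatogonial genes had 17 of 21 starts in all 4 lists, differentiating ones 18 of 19 and pachytene spermatocyte genes 24 of 30. The labels of the cell types could therefore not be checked from presence at these starts.

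**Figure D2:**
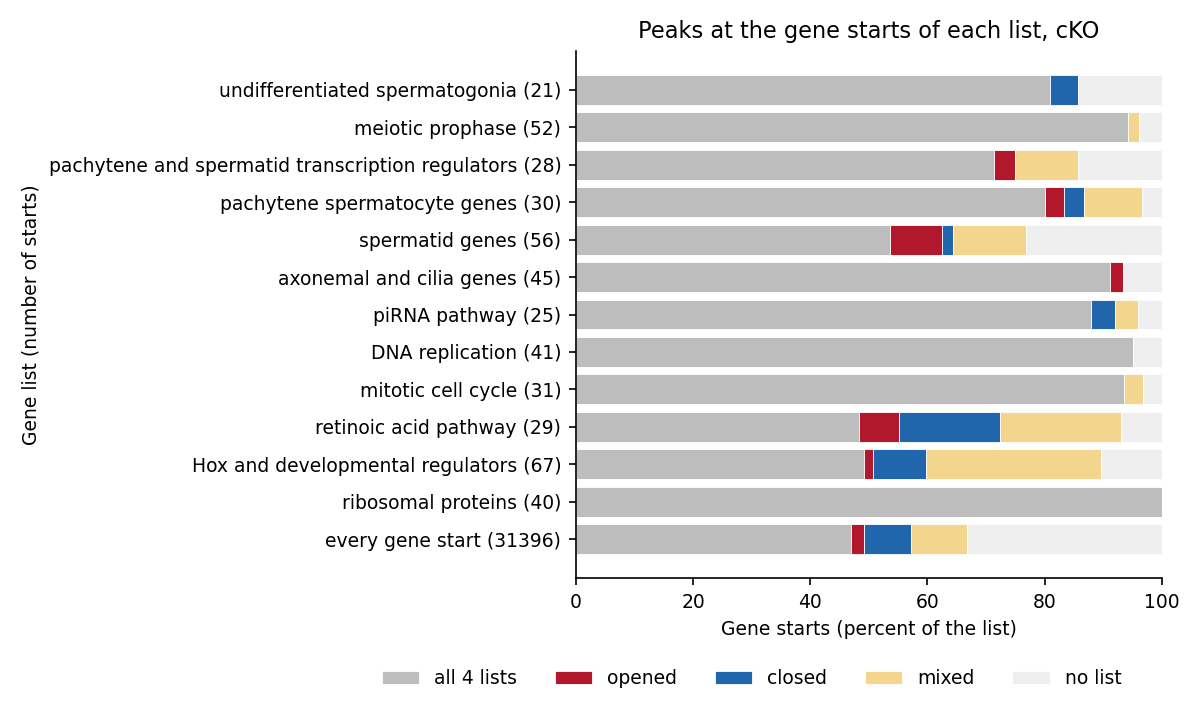
Percent of the gene starts of each list with a peak in all 4 cKO lists, opened, closed, mixed or in no list, for lists of at least 20 starts (number in brackets). Meiotic prophase, replication and ribosomal starts are nearly all in every list, and the spermatid list holds 5 opened and 1 closed of 56 starts, beside 2.24% and 7.99% of every start.

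Spermatid genes held 5 opened and 1 closed of 56 starts, beside the 2.24% and 7.99% of every start. H2bl1, a testis histone of the H2B family, had 5.46 and 4.99 in 4C cells. Spaca7, an acrosome gene, had 4.23 and 5.48, and Gsg1, a germ cell gene, 4.05 and 3.16. Both starts of Spaca3, another acrosome gene, shared 1 peak at 3.66 and 3.66. The pachytene spermatocyte list held 1 opened and 1 closed of 30 starts. Spata16, which acts in acrosome formation, opened at 4.89 and 3.94. Calr3 closed at one start with 5.12 and 7.46 in cKIT+ cells, while its other start was open in all 4 lists. Rfx4, a factor of the RFX family that acts in ciliated cells, opened at 4.14 and 3.88 in 4C cells. Dnah17, an axonemal dynein heavy chain, had 3.97 and 3.76. Txndc2, a sperm thioredoxin, closed with 3.91 and 4.54 in cKIT+ cells. None of these calls held under every setting. Gsg1, Spaca7, Spaca3, Spata16 and Txndc2 lost theirs with −log10 q of at least 5, and Calr3 with lists of equal length. H2bl1 lost its call under the 200 bp cover, Rfx4 with a window of 2000 bp and Dnah17 with one of 500 bp.

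Some list genes have no strand-resolved start, so a call at one of their annotated ends may stand for either end of the gene. Baz1a, a partner subunit of SMARCA5, opened at one end with 5.92 and 5.37 in 4C cells, and Cfap157, a cilia gene, with 5.72 and 6.43. Rsph1, a radial spoke gene of the axoneme, closed at one end with 8.82 and 9.39 in cKIT+ cells, and Insl6, an insulin-like gene of spermatocytes, with 6.15 and 7.0. Spo11, which makes the meiotic DNA breaks, closed at one end with 3.40 and 4.78.

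The retinoic acid list held 2 opened and 5 closed of 29 starts, beside 2.24% and 7.99% of every start, and 4 of these 7 starts were of Stra6. Retinoic acid drives spermatogonial differentiation. Stra6, the receptor for retinol-binding protein, had both opened starts, the first with 3.50 and 3.92 in 4C cells and the second with 4.26 and 3.92, and also 2 closed starts at higher coordinates that shared 1 peak of 6.49 and 4.58. Both starts of Aldh1a1, a retinal dehydrogenase, closed, with folds of 7.78 and 6.45 at one. Rxrg, a retinoid X receptor, closed at 4.32 and 4.99. The Stra6 and Rxrg calls were lost with −log10 q of at least 5, and those of Aldh1a1 were kept. Among Hox and developmental regulators Pax1 opened at 4.33 and 4.04, a call lost with −log10 q of at least 5 and under the 200 bp cover. In the same list 6 of 67 starts closed (Pax8, Hoxd11, Nkx2-2, Hoxa10, Gata2 and Otx2), with folds from 2.05 to 4.36. That count is near the 7.99% of every start, and all 6 closed calls were lost with lists of equal length and with −log10 q of at least 5. Piwil4, a PIWI protein of the spermatogonial piRNA pathway, closed at 2.89 and 4.09, a call lost under the same settings.

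Starts of somatic testis genes were found among the closed ones. Sertoli cell markers gave 5 closed of 14 starts (Inha, Cst12, Shbg, Dhh and Fshr) with folds of 3.12 to 4.29 in cKIT+ cells, beside 7.99% of every start, and none opened. Cst12, Shbg, Dhh and Fshr lost the call with lists of equal length and with −log10 q of at least 5, and Inha with windows of 500 and 2000 bp. Leydig cell markers gave 2 of 8 (Hsd3b6 and Cyp11a1) and macrophage markers 2 of 9 (Fcer1g and C1qc). Cyp11a1 and C1qc lost the call with lists of equal length, and Fcer1g with a window of 500 bp. Cyp11a1 also lost it with −log10 q of at least 5. Peritubular, endothelial and lymphoid lists gave no closed start. Of the starts of these markers, 7 Sertoli, 3 Leydig and no macrophage starts had a peak in all 4 lists, and 0, 1 and 4 were in no list. At the annotated ends of genes without a strand-resolved start, 3 of 16 Sertoli, 2 of 6 Leydig and 5 of 12 macrophage ends closed. So did 1 of 10 peritubular (Col1a1) and 1 of 10 endothelial ends (Cdh5), beside 9.1% of every end. No end of these lists opened. The wash of the tubules in the labels' protocol was meant to deplete Leydig cells. Their part in the count of closed starts was not tested, and fewer cells of a type and less accessible chromatin per cell cannot be told apart in sorted bulk libraries.

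Promoters of opened starts were poor in CpG. Their median ratio of observed to expected CpG was 0.199, against 0.260 at closed starts, 0.763 at starts in all 4 lists and 0.172 at starts in no list. A GC box (GGGCGG, bound by SP and KLF factors) was in 16.1% of opened promoters, 18.5% of closed ones, 64.0% of those in all 4 lists and 36% of every promoter. CAACTGCC was in 50 of 704 opened promoters (7.1%), against 1.16% of closed, 1.00% of all-4, 1.06% of no-list and 1.23% of every promoter. Some of the 50 share the sequence around the match, such as LOC100125594 with Gm14144 and Gm32455 with 1700010B08Rik. The 50 are therefore not all separate sequences, and the copies were not counted. The other MYB form searched, AACNGTT, was in 8.95% of opened and 4.32% of every promoter. CCTCAG, the core of the STRA8 sequence, was in 37.4% of opened and 26.8% of every promoter. Both strands were searched, over the same 300 bases; a match is a description and not a bound site.

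**Figure D3:**
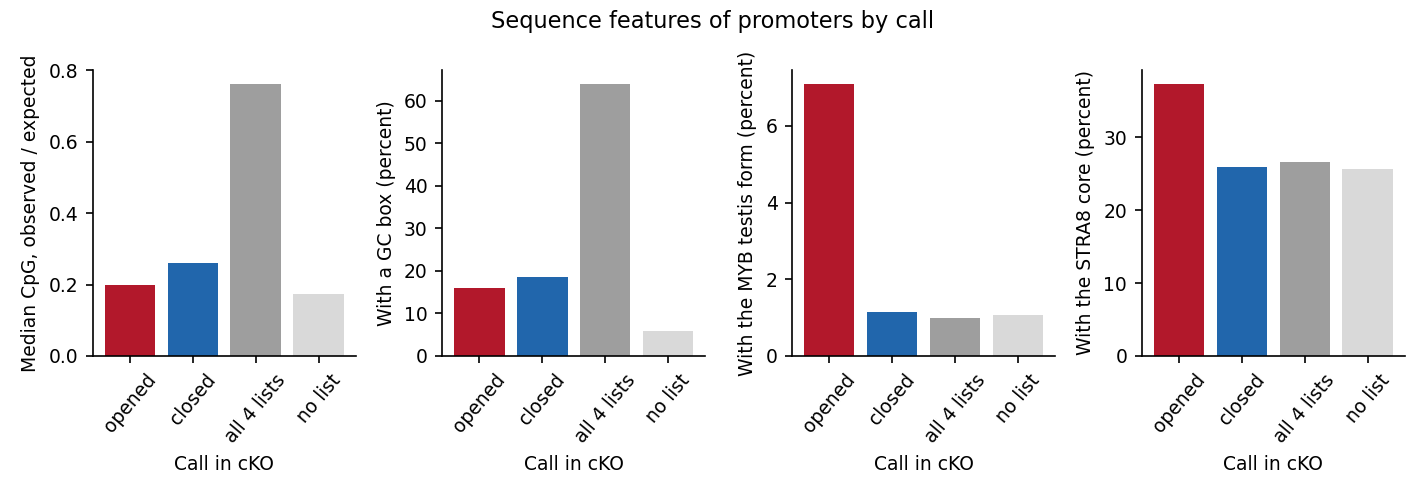
Median observed over expected CpG, and percent of promoters holding the GC box, the MYB testis form and the STRA8 core, for opened, closed, all-4 and no-list starts in cKO. The MYB testis form stands at 7.1% in opened promoters and near 1% in the other sets, and the GC box at 64.0% in promoters of all 4 lists.

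The 50 opened starts with CAACTGCC belong to 49 genes, and the promoter peak covered the start in both 4C libraries at 33 of them. The match nearest the promoter's 5′ end lay at a median of −43 bases from the start, and within 100 bases before to 50 after the start at 37 starts. Of the 50, 27 also opened in wild type and 3 were in no wild type list, beside 52.3% and 13.1% of all 704 opened starts. 4930595L18Rik, printed above, had folds of 6.44 and 8.16, Catsperb, a subunit of the sperm calcium channel, 5.06 and 5.03, Mroh2b 5.13 and 4.94, and 1700010B08Rik, whose promoter holds 2 matches, 4.54 and 4.60.

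RNA was tested in the cKO testis samples, pachytene or diplotene spermatocytes against spermatogonia, with the edgeR quasi-likelihood test on UMI counts summed per sample and class and Benjamini-Hochberg adjustment over 18986 genes. The 2 samples held 7413 and 12933 cells after filtering, with 1050 and 1354 cells in the pachytene class and 359 and 523 spermatogonia. In both samples 27 barcodes occurred. With looser cluster names the pachytene class held 1989 and 2418 cells, so the class used may leave out part of the pachytene cells. How well it matches the 4C sort was not tested. The median cell of the pachytene class held 5731 and 12171.5 UMIs and that of the spermatogonia 2065 and 2351. Over all genes 30.9% rose and 33.9% fell. Of the 638 genes at opened starts, 211 rose, 26 fell, 111 did not pass and 290 were not tested, for low counts or for want of a match. As a share of all genes, 33.1% at opened starts rose and 4.08% fell, against 16.3% and 17.8% of the 25748 genes with a start. Of the 2187 genes at closed starts, 168 rose and 206 fell, 7.68% and 9.42% of all, and 1435 were not tested. The medians over genes that passed the filter were a log2 change of 3.14 at opened starts, −0.27 at closed starts and −0.07 over all genes, though a gene can pass through the class where it is high. The closed median turned to 0.00766 without a count filter, 0.16 with doublets kept and 0.090 with looser cluster names, and the opened median was 1.28 and 1.5 from the CPM ratios of single samples. Scaling to total UMIs moved the median of all genes to −0.89; opened genes were then split 179 up and 59 down, and closed genes 123 up and 290 down.

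Ankar stood at 22.6 and 11.5 CPM (UMIs scaled to a fixed total per class and sample) in spermatogonia and at 378 and 315 in pachytene cells of the 2 samples, a log2 rise of 5.25 (edgeR adjusted p = 2.21e-15). Spata16 rose from 33.4 and 22.4 to 556 and 426 CPM, and Slc9c1 from 8.62 and 10.2 to 159 and 101 CPM. Gm40646 rose from 3.23 and 3.2 to 133 and 88.0 CPM. In all 4 genes the samples of the classes did not overlap. Gsg1, with 84.0 and 104 against 103 and 91.3 CPM, passed with TMM scaling (log2 change 0.87, edgeR adjusted p = 0.00316) and not with total-UMI scaling (0.05, adjusted p = 0.858). Ttc6 rose by 1.77 on the log2 scale (edgeR adjusted p = 1.59e-06), with 44.2 and 19.8 CPM against 70.5 and 47.3. Of the spermatid genes at opened starts, Spaca7 stood at 10.8 and 16.6 CPM in spermatogonia and 15.2 and 10.6 in pachytene cells, which overlap.

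The 5 opened genes with the highest fitted rise had no UMI in spermatogonia, so their rise is known only as a lower bound and is not ranked against that of other genes. In the window of chr5 from 11 to 12 Mb 20 of 37 regions opened (54.1%) and 2 closed, against a median of 2 opened and 22 closed in 2412 windows of 1 Mb, of which 27 had more opened than closed regions; the most opened in one window was 26, of 180. The chr5 window holds Speer1 and was chosen after the values were seen. Speer1, of a testis gene family with many close copies whose reads may be shared, had 0 UMIs in spermatogonia and 343 in pachytene cells, at least 10.1-fold higher (floor of 3 counts over the group). Gm26630 was at least 6.84-fold higher, Gm32877 at least 6.52-fold, Gm45086 at least 5.49-fold and Gm36799 at least 4.32-fold. Gm45086 had an opened and a closed start, as did 15 genes in all. Some opened genes fell: Arvcf, a catenin of cell junctions, fell by 5.65 on the log2 scale from 32.3 and 25.6 to 0.73 and 0.10 CPM, and Gal3st1, a sulfotransferase of testis glycolipids, fell by 5.25. The other 3 largest falls were of Gm6329, Cbarp and Pdlim4. Dip2b also fell, from 157 and 124 to 15.4 and 10.8 CPM.

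Among genes at closed starts, Elavl2, a neuronal-type RNA-binding protein also made in germ cells, fell from 213 and 152 CPM to 0.73 and 0.40 (log2 change −7.57, SE 0.36, edgeR adjusted p = 4.18e-17). Efna2, an ephrin ligand, fell from 33.4 and 33.3 to 0.12 and 0 CPM. Piwil4 had 18 UMIs in spermatogonia and none in pachytene cells, at least 68.1-fold lower; Lhx8, a LIM homeobox gene of germ cells, was at least 87.1-fold lower but did not pass with DESeq2 (log2 change −8.33, adjusted p = 0.137), and Hes5, a Notch target, at least 56.8-fold. Others moved against their start: C7 rose from 1.08 and 2.56 to 28.9 and 24.1 CPM, and 2310065F04Rik, Pld1, Gm35667 and Vax1 had no UMI in spermatogonia and were at least 10.9-, 6.75-, 6.22- and 4.87-fold higher. Zfand6 fell to 21.3 and 15.3 CPM in pachytene cells from 214 and 142, and Aldoc to 0.73 and 0.80 from 30.2 and 22.4.

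**Figure D4:**
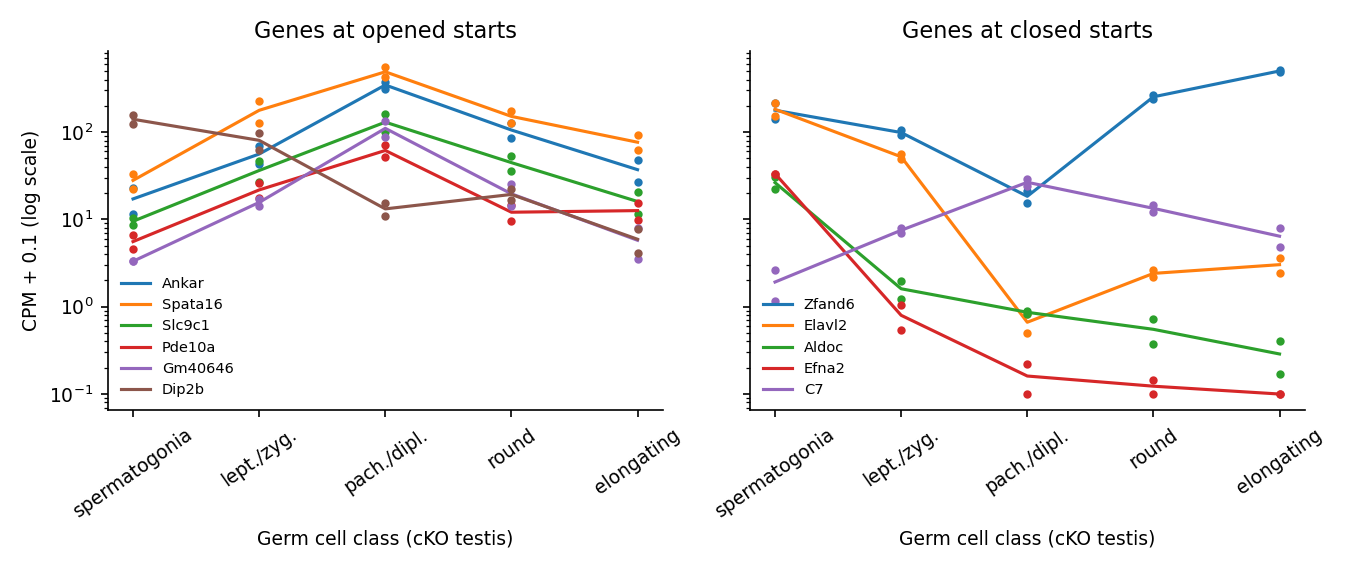
CPM plus 0.1 (log axis) in 5 germ cell classes of the cKO testis, points for the 2 samples and lines for their mean, of genes at opened starts (left) and closed starts (right) chosen after their values were seen. Ankar, Spata16, Slc9c1, Pde10a and Gm40646 are highest in the pachytene class and Dip2b is not; Zfand6, Elavl2, Aldoc and Efna2 are lower there than in spermatogonia, and C7 is higher.

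Of the 12556 genes with a start in all 4 lists, 3220 (25.6%) rose and 4181 (33.3%) fell in RNA, beside 16.3% and 17.8% of every gene with a start. Among tested genes only, 32.2% rose and 41.8% fell, beside 31.7% and 34.7% of every tested gene with a start. Over whole lists, whichever the call at their starts, of 59 axonemal and cilia genes, 48 rose and 1 fell, with a median log2 change of 3.45 over those tested. Of 43 DNA replication genes, 6 rose and 28 fell (median −2.20). Of 33 pachytene spermatocyte genes, 28 rose and 3 fell, though some of them also served to name the classes. Rsph1 rose from 248 and 187 to 3911 and 4947 CPM, and Spo11 from 17.2 and 14.1 to 153 and 100.2 CPM, while one end of each was closed. Baz1a, open at one end in 4C cells, rose from 149 and 94.1 to 344 and 188 CPM.

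Of the genes at the 50 opened starts with CAACTGCC, 27 rose and 1 fell, 55.1% and 2.04% of 49. Among the 589 other genes at opened starts 31.2% rose and 4.24% fell, and the difference was not tested. Of the 371 genes with CAACTGCC at any start, whatever its call, 28.8% rose and 10.8% fell, beside 16.3% and 17.8% of every gene with a start. Catsperb rose from 11.9 and 17.9 to 228 and 126 CPM, Mroh2b from 10.8 and 8.32 to 122 and 80.5 CPM, and 1700010B08Rik from 34.5 and 33.3 to 593 and 732 CPM. Mybl1 itself, a marker used to name the pachytene class, stood at 12.9 and 10.2 CPM in spermatogonia and 87.4 and 59.1 in pachytene cells.

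Smarca5 kept a peak at its start in all 4 lists, at 8.15 and 8.33 in 4C cells and 9.91 and 8.75 in cKIT+ cells. Its RNA stood at 331 and 207 CPM in spermatogonia and 29.1 and 18.8 in pachytene cells of cKO testis; neither value checks the deletion, since which exons the reads cover is not known here.

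The stage change was set beside that of the wild type lists. Of the opened regions 40.4% also opened in wild type against 4.44% of every region, and 27.4% were in no wild type list, against 31.4% of every region; of the opened starts 52.3% also opened in wild type, against 2.58% of every start. Of the closed starts 12.9% also closed in wild type, against 2.02% of every start. Of the closed regions 9.03% closed in wild type, against 5.01% of every region: 80.9% of them were in the list of cKIT+ wild type replicate 2 and 11.4% in that of replicate 1, which held 43672 autosomal peaks against 110176. Without that replicate 80044 regions closed in wild type, against 9526 with it. The difference between the genotypes in the log2 stage change of peak number was −0.67 (exact permutation within sorts, p = 0.667; adjusted p = 1.0), and −0.0042 without that replicate. No measure passed adjustment. The smallest exact permutation p was 0.0556 (adjusted p = 0.25). It was given by the median fold (genotype difference −0.24) and the share of peaks with −log10 q of at least 5 (−0.72). The 36 arrangements cannot give a smaller p, so no measure could pass 0.05 and the test cannot decide whether the genotypes differ. Of the 335 genes at starts that opened in both genotypes, 135 (40.3%) rose and 7 fell in cKO RNA; of the 87 at starts that opened in cKO and were in no wild type list, 14 (16.1%) rose and 4 fell, and of every gene with a start 16.3% rose. H2bl1 was among the latter, and it had no match by identifier or symbol in the RNA data.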

How the data were processed

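ATAC-seq was measured in sorted cells and RNA in whole-testis suspensions. Per the submitters' processing notes, ATAC reads passed through cutadapt, Bowtie2 and MACS2 on mm10, without versions. The authors deposited 1 broad peak list per library with a score, a fold enrichment ratio over the library's own background, and −log10 p and −log10 q values; the score was not used. The deposited UMI counts came from Cell Ranger 7.1.0 (sample 1) and 9.0.1 (sample 2), per the file headers; Seurat 4.1.0 is named in the notes without a role. The 2 files hold 63605819 and 115830234 UMIs. The peak lists give no read counts, so no interval is given.

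The members and lists were chosen with earlier results of these data known. Gene starts came from RefSeq promoters on GRCm38.p6 (31396 starts of 25748 genes; chromosome 18 has none there), with a window of 1000 bp. Named genes were those with the highest mean fold (10 in each direction), called list members, the 5 highest distal regions, the 5 largest ratios in regions of all 4 lists, and the 5 largest fitted RNA changes each way; protein-coding starts of high fold, promoters with CAACTGCC and the plotted RNA genes were added after the values were seen.

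Cells were kept with at least 1000 UMIs, 500 genes and at most 10% mitochondrial UMIs. Scrublet in scanpy 1.11.5 removed 685 and 1329 doublets. Leiden clusters on 2000 variable genes, with called and list genes, markers, X, Y and mitochondrial genes barred, were named where at least 3 markers were raised and their mean log2 level was at least 1. That rule was set after the clusters were seen and left 1892 and 3699 cells unnamed. Counts summed per sample and class (5 germ cell classes) were fitted with edgeR 4.0.16, TMM scaling, filterByExpr and the sample as a block. In simulated data for this comparison (17770 genes, 200 changed 4-fold) 65.5% of changed genes were recovered, with 10 false calls. The simulated classes shared 1 mean profile apart from the changed genes, with 1 fixed dispersion. In the real data 30.9% of genes rose and 33.9% fell, so these values are not error rates for them. Replicate numbers did not pair the ATAC libraries.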

Additional observations from a re-analysis of the deposited data

How the results depend on the processing

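Lists of equal length gave 16656 opened and 22773 closed regions (log2 closed over opened 0.45 against 2.97) and 2756 opened and 976 closed starts (log2 −1.50 against 1.83). Under them the log2 ratio of 4C to cKIT+ turned to −0.14 for median peak width and 0.22 for the number of peaks at gene starts. These lists drop the weaker peaks of the longer lists by construction. With −log10 q of at least 5, 2187 regions opened and 35884 closed (log2 4.04), and the log2 ratio at starts was 2.49. Leaving out each library gave 9147 to 20433 opened and 68938 to 86842 closed regions (log2 1.75 to 3.25) and 838 to 1065 opened starts; without 4C replicate 1 there were 20433 opened regions, and without 4C replicate 2 there were 19052. Leaving out a library only loosens the rule, so no call is lost. Without cKIT+ wild type replicate 1 the genotype difference in the stage change of the share of peaks at gene starts turned from 0.42 to −0.0462, and leaving out each library gave −0.0462 to 0.892.

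For RNA, 26 opened genes fell, against 17 with doublets kept, 17 with a mean marker level above 0 to name clusters and 59 with total-UMI scaling; the last pair of settings was chosen after seeing the data. The median log2 change at opened starts was 2.62 with DESeq2, 2.41 with total-UMI scaling and 1.28 to 1.5 from the CPM ratio of 1 sample. The median at closed starts turned to 0.00766 without a count filter, 0.16 with doublets kept and 0.090 with the looser cluster names, and was −1.08 with total-UMI scaling; the cause was not tested. Of 20 named RNA changes, 19 held with DESeq2 and Lhx8 did not, at a log2 change of −8.33 against −8.46. The replicate block left the calls of regions and starts the same by construction (8419 opened and 65972 closed regions), and its smallest exact permutation p is 0.5; deviations of same-numbered libraries had a correlation of −0.014 over 26468 regions. Without the sample as a replicate block, 203 opened genes rose and 24 fell.

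No read depth accompanies the peak lists, so what depth limits could not be measured. Of 80 named gene starts, 61 kept their call with lists of equal length and 54 with −log10 q of at least 5.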
